A study of Mus musculus with 4 samples.

Results

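Focal adhesions are the sites at which a fibroblast holds on to its matrix, and 10 genes that encode their core proteins were followed here in a map of open chromatin. The genes were taken as a fixed list of names and not by a measured value, but with earlier results of these data known. They were the integrins Itgb1 and Itgav, the integrin activator Tln1, and the ILK-PINCH-parvin genes Ilk, Lims1 and Parva. The others were the kinase and scaffold genes Ptk2 and Pxn, and the actin-linked genes Vcl and Zyx. All together they are 10 of 21887 protein-coding genes with a RefSeq span on assembled chromosomes of mm10. In or within 50 kb of these 10 genes lay 95 of 39137 merged accessible regions. Chromatin had been profiled by ATAC-seq, in which a transposase cuts open DNA, in 10T1/2 cells, an established mouse embryonic fibroblast line. There were 2 libraries of wild-type cells and 2 of Ranbp2 knockout cells, and all 4 came from cells kept under the same culture protocol. Ranbp2 encodes a nucleoporin, and the knockout cells were a single CRISPR-Cas9 clone, so a feature of that clone and an effect of the lost gene cannot be told apart. The labels do not say that the 2 libraries of a genotype came from separate cultures.

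Integrins are paired alpha and beta chains that bind matrix outside the cell. Talin binds the tail of the beta chain and switches the integrin on, and a complex of integrin-linked kinase, PINCH and parvin joins the same tail to actin. Focal adhesion kinase and paxillin relay signals from the site, while vinculin and zyxin strengthen its link to actin when it is under tension. An accessible promoter marks a gene that can be transcribed, but the files hold no RNA, and gene expression was not measured.

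Peaks had been called in each library separately, so each value below belongs to its own list. Fold is the caller's enrichment of a peak summit over the local background of that library. The median fold of the 10977 regions with a peak in all 4 libraries was 13.6 in wild-type replicate 1, 11.2 in replicate 2, 7.97 in knockout replicate 1 and 10.1 in replicate 2, so folds are not compared between libraries. Strength is compared instead by rank: the strength percentile places a region's strongest peak by −log10 q among those same 10977 shared regions, with 100 for the strongest. A gene end means a summit within 1 kb of either end of the gene span, and all other regions are called distal. With 2 libraries against 2, the two-sided exact permutation test cannot give a p below 0.33, which is the p of any region whose genotypes do not overlap; no region here can pass a threshold of 0.05. The lists held 33721 and 18511 wild-type and 13877 and 24292 knockout peaks, and sequencing depth is unknown. A region missing from a short list may lie below its threshold. Of 11 fibroblast markers, the wild-type libraries had peaks at the gene ends of 9 and 7 and the knockout libraries at those of 4 and 5, with Col1a2, Vim, Fn1 and S100a4 in all 4, and Pdgfra and Prrx1 in none; the part of this in the results below was not tested. Markers of epithelial, endothelial and pluripotent cells had none in any library, and of the immune and neural markers, Spi1 and Tubb3 had one in wild-type replicate 1 alone.

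Of the 10 genes, 7 had an entry in the table of RefSeq promoters (GRCm38.p6, the assembly of mm10); Parva, Pxn and Ptk2 had none. The sequences of 5 are printed, each as the 250 bases before the listed start, 5′ to 3′ on the strand of the gene. They were chosen because Vcl and Zyx had the strongest gene ends by −log10 q, Lims1 overlapped a deposited differential region, Itgb1 ranked higher in both knockout libraries, and the start of Itgav lacked a peak in 1 library. Capitals mark matches, on either strand, to the AP-1 motif TGANTCA, the TEAD motif GGAATG, the GC box GGGCGG, the CCAAT box and the CArG box of serum response factor.
Vcl, chr14:20929148-20929397, plus strand: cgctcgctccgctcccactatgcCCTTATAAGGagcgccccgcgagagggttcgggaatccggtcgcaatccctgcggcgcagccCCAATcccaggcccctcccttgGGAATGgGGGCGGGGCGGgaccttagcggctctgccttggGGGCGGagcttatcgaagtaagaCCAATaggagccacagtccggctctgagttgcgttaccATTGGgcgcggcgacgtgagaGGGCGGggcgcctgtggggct
Zyx, chr6:42349578-42349827, plus strand: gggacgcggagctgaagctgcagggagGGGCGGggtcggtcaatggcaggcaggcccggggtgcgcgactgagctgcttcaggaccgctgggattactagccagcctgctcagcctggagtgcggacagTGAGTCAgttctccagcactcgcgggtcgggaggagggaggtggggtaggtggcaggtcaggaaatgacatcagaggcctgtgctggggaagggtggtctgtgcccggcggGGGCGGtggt
Lims1, chr10:58323297-58323546, plus strand: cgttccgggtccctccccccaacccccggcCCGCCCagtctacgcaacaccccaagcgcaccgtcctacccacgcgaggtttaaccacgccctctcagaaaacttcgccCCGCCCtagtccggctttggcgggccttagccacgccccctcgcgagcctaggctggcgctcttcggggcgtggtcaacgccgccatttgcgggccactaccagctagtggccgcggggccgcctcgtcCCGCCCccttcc
Itgb1, chr8:128685404-128685653, plus strand: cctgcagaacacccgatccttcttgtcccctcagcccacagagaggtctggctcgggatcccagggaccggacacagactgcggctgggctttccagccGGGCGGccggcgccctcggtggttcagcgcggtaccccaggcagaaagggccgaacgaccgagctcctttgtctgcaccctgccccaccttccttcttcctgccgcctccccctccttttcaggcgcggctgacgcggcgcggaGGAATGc
Itgav, chr2:83724147-83724396, plus strand: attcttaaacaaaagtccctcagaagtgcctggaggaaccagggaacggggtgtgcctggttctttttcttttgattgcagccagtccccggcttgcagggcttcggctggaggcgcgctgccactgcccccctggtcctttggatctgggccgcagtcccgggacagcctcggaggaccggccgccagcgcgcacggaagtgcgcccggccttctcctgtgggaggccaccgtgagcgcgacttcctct

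Vcl held the only CArG box among the 10 starts listed for the 7 genes, CCTTATAAGG, at bases 227 to 218 before its start, and 1.47% of all 32851 promoters of this length in the table held one. It also held 4 GC boxes, of which 2 share a base, 3 CCAAT boxes (33.8% of all promoters had a match) and 1 TEAD motif next to a GC box. An AP-1 motif, TGAGTCA, stood 121 to 115 bases before the start of Zyx, and 6.75% of all promoters had such a match. Itgb1 had a TEAD motif (12.6% of all promoters) 7 to 2 bases before its start. GC boxes (32.7% of all promoters) were found in Vcl, Zyx, Lims1, Itgb1 and 1 of the 2 listed starts of Ilk, and none of the 5 motifs was matched in the windows of Itgav and Tln1. These are matches of letters and were not tested as binding sites.

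The summits of Vcl and Zyx lay inside the printed windows in all 4 libraries. Those of Vcl stood at positions -165 and -123 in the wild-type and -103 and -109 in the knockout libraries, counted from the listed start. At Zyx they stood at -38 in 3 libraries and at -190 in knockout replicate 1. The Lims1 summits lay further out, between -374 and -369, upstream of the printed window but in the same region.

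Most of the 10 genes had an open gene end in both genotypes. A gene-end peak was present in all 4 libraries for 8 genes, against 26.4% of all protein-coding genes. Pxn and Itgav had none in any library, as did 56.6% of all genes. At 0 members was the gene end open in 1 genotype alone (both its libraries and neither of the other), a pattern found for 1.69% (wild type) and 0.0503% (knockout) of all genes. The median wild-type strength percentile of the 8 regions was 82.1, against 61.0 over all shared regions at gene ends. The plot of strength percentiles by library shows them.

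**Figure D1:**
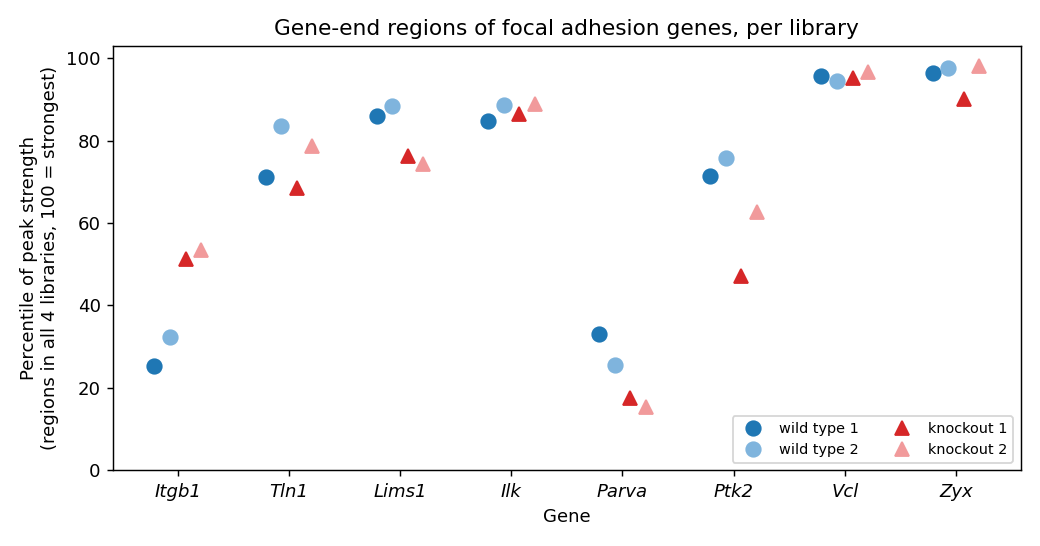
Strength percentile (vertical axis, among the 10977 regions found in all 4 libraries, 100 strongest) of the gene-end region of 8 focal adhesion genes, 1 marker per library, circles for wild type and triangles for knockout. The wild-type and knockout markers separate at Itgb1, Lims1, Parva and Ptk2 and overlap at Tln1, Ilk, Vcl and Zyx.

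Vcl and Zyx stood at the top of this order by −log10 q. At Vcl, which encodes vinculin, the region (chr14:20928958-20929441) had folds of 22.1 and 20.2 in the wild-type and 14.5 and 18.9 in the knockout libraries, and its strength percentile was 95.1 ± 0.94 in wild type and 95.9 ± 1.0 in knockout (SD, n = 2 each, here and below). At Zyx, which encodes the LIM protein zyxin, the region (chr6:42349359-42350037) had folds of 16.3 and 17.9 against 11.1 and 17.3, and percentiles of 97.0 ± 0.97 and 94.2 ± 5.6. In both genes the genotypes overlapped, but not under every ranking. Ranked by fold, Vcl stood at 92.04 and 93.7 in wild type and 94.5 and 95.4 in knockout, which do not overlap. The Zyx difference was -2.83 points, 8.37 ranked by fold (with overlap), and -9.69 without overlap once the chromosome median of each library was subtracted. Ilk, the gene of integrin-linked kinase, followed with 86.8 ± 2.8 and 87.6 ± 1.6 (chr7:105736368-105736725, folds 20.3, 18.9, 12.9 and 17.0 in the order wild type 1 and 2, knockout 1 and 2), again with overlap. Ranked by fold, Ilk stood above Zyx in wild type, at 86.7 and 91.0 against 68.1 and 88.1. The summit lies inside the span of the neighbouring gene Rrp8, so this region cannot be assigned to 1 of the 2 genes. Tln1, which encodes talin, had percentiles of 71.2 and 83.6 in wild type and 68.6 and 78.8 in knockout (chr4:43562203-43562706, folds 10.9, 12.3, 7.22 and 9.61), so its 2 replicates lay further apart than the genotypes.

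Lims1 and Ptk2 were lower in both knockout libraries, and both regions are named in the authors' deposited table of wild-type-enriched regions. Lims1 encodes PINCH, the LIM-domain adaptor of integrin-linked kinase. Its gene-end region (chr10:58322897-58323656) had folds of 14.7 and 13.6 in wild type and 9.94 and 11.4 in knockout, and strength percentiles of 86.1 and 88.5 against 76.3 and 74.4, a difference of -11.9 points. The direction rests on the ranking by −log10 q: ranked by fold, the percentiles were 57.9 and 67.2 in wild type and 71.7 and 61.8 in knockout, which overlap, with a difference of 4.22 points in the other direction. Ptk2 encodes focal adhesion kinase. Its region (chr15:73423129-73423416) lay 503 bp inside the higher-coordinate end of the gene, with folds of 17.6 and 15.3 in wild type and 8.18 and 12.3 in knockout. The percentiles were 71.5 and 75.9 against 47.1 and 62.6, a difference of -18.8 points that became -8.10 without knockout replicate 1.

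The deposited regions are 400 bp wide, chr10:58322978-58323377 and chr15:73423117-73423516, and the authors' deposited table gives no fold change or p for them. Both genes sit on chromosomes where many regions ranked lower in the knockout. The median difference was -5.46 points over 562 shared regions of chromosome 10 and -4.70 over 545 of chromosome 15, and 41.6% and 40.2% of those regions were lower in both knockout libraries. Relative to these medians, Lims1 stood at -6.48 and Ptk2 at -14.1 points, and with the chromosome median of each library subtracted they stood at -5.29 and -12.02. The part of the chromosome in either difference was not tested. Lims1 is also a neighbour of the edited gene, since its higher-coordinate end lies 22.2 kb from Ranbp2. The Lims1 gene-end region, however, is at the lower-coordinate end, on the far side of the gene. A region 81 bp from the end of Ranbp2 that faces Lims1, and 123.4 kb from the lower-coordinate end of Lims1, had a peak in all 4 libraries. Its strength percentiles were 68.8 and 55.1 in wild type and 45.6 and 71.6 in knockout, which overlap.

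Parva and Itgb1 had weaker gene ends and ranked in opposite directions in the knockout. Parva encodes alpha-parvin, the actin-binding member of the ILK complex. Its region 686 bp inside the lower-coordinate end (chr7:112428193-112428438) had folds of 13.7 and 9.45 in wild type and 6.45 and 7.19 in knockout, and percentiles of 33.2 and 25.4 against 17.6 and 15.3. It left the shared set when peaks were held to a −log10 q of at least 10. A smaller peak 160 bp from that end was present in both wild-type libraries and knockout replicate 2, at folds of 5.97, 5.91 and 4.66. Itgb1 encodes the beta1 chain shared by most fibroblast integrins. Its region (chr8:128685393-128685806) had folds of 11.1 and 9.94 in wild type and 8.87 and 11.8 in knockout, and percentiles of 25.3 and 32.4 against 51.4 and 53.5. The difference was 23.6 points, the highest of the 8 gene-end regions, where the median of chromosome 8 was 1.40. It became 16.7 points once the chromosome median of each library was subtracted. Ranked by fold it kept its direction, at 30.4 and 38.9 against 61.9 and 65.1.

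The start of Itgav, the alphaV integrin chain, falls inside its gene span and outside the gene-end window. The table lists it at chr2:83724397, and a peak with its strongest summit at 83724453 was present in wild-type replicates 1 and 2 and knockout replicate 2, with folds of 9.25, 7.90 and 6.63, and missing from knockout replicate 1, the shortest list. These peaks ranked at percentiles 60.2, 34.6 and 39.5 of their own lists, and with the lists limited to the 13877 strongest peaks of each the start was open in the 2 wild-type libraries alone. Pxn, the gene of the scaffold paxillin, had its nearest region in all 4 lists 2.0 kb from the lower-coordinate end (chr5:115489472-115490496). Its strength percentiles were 62.2 and 79.5 in wild type and 79.3 and 82.1 in knockout, which overlap, a difference of 9.88 points. Ranked by fold they did not overlap, at 25.2 and 54.5 against 71.2 and 66.9, a difference of 29.2 points, and with chromosome medians subtracted they did not overlap either, at 12.4 points. The region lies inside Sirt4, 324 bp from an end of that gene. The other 2 listed starts of Lims1, inside the gene, had no peak within 1 kb in any library.

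Distal regions made up 86 of the 95, of which 39 lay inside a member gene and 47 outside, and 15 of them were at the end of another gene. Present in all 4 libraries were 34 of the 95 (35.8%, against 28.0% of all merged regions), 8 at gene ends and 26 distal. A single library held 33 (34.7%, against 40.9%), and 29 of these were in wild-type replicate 1, the longest list (30.5% of member regions, against 28.2%). The stacked bars of regions per gene show that these counts were spread over all 10 genes, from 5 regions at Zyx to 14 at Pxn.

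**Figure D2:**
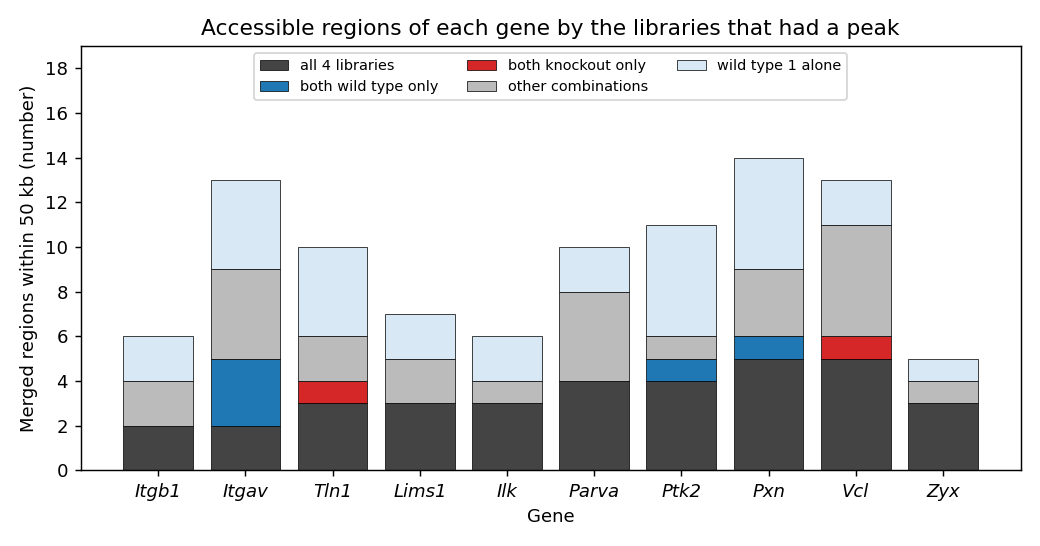
Number of merged regions in or within 50 kb of each gene (vertical axis), stacked by the libraries that had a peak. Itgav has 3 of the 5 regions found in both wild-type libraries only, and Tln1 and Vcl have 1 each of the 2 found in both knockout libraries only.

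Sites open in wild type alone were found at Itgav, Ptk2 and Pxn. Both wild-type lists and neither knockout list held 5 of the 95 regions (5.26%), against 6.52% of all merged regions, and 3 of them belonged to Itgav. The strongest lay inside the gene (chr2:83760192-83760348, 38.0 kb from its lower-coordinate end) with folds of 10.9 and 10.4, at percentiles 70.2 and 57.5 of the 2 wild-type lists. A second inside Itgav (chr2:83744444-83744573) was weak, with folds of 3.96 and 5.86, and the third (folds 7.44 and 7.24) lay 5.7 kb beyond the gene, at an end of Fam171b. The other two were inside Ptk2 (chr15:73318650-73318921, folds 9.65 and 8.40, percentiles 61.3 and 38.0) and inside Pxn (chr5:115531707-115531874, folds 5.85 and 5.47). With the lists brought to equal length, many of the 95 regions had no peak left, so counts at that length are not shares of 95. Of all merged regions left, 6.2% were then wild-type-only. Among the member regions 5 were again wild-type-only, but not the same ones. The Itgav site at 38.0 kb and the Ptk2 site were still among them, and the other 3 were the listed Itgav start, a site inside Pxn and a site 14.7 kb beyond Zyx, all present in knockout replicate 2 in the full lists.

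Knockout-only sites were found at Tln1 and Vcl. There were 2 (2.11%, against 0.953% of all merged regions). One lay inside Tln1, 2.1 kb from its higher-coordinate end (chr4:43560340-43560495), with folds of 4.84 and 5.14 at percentiles 31.3 and 57.2 of the knockout lists. The other lay 34.5 kb from Vcl (chr14:20894766-20894904), with folds of 4.37 and 4.32 at percentiles 3.41 and 14.4. With lists of equal length fewer member regions had a peak, and 5.23% of all merged regions left were knockout-only. Of the member regions 4 were: the Tln1 site, 2 other sites near Vcl, 1.3 kb and 32.3 kb from its higher-coordinate end, and a site 11.2 kb beyond Ptk2. In the full lists both of these Vcl sites also had a peak in wild-type replicate 1. The Ptk2 site had one in all 4 libraries. The Vcl site at 1.3 kb lies 718 bp from an end of Ap3m1, and that at 32.3 kb lies inside Adk. The counts hang on single libraries: wild-type-only regions became 34 without wild-type replicate 2 and 12 without knockout replicate 2, and knockout-only regions became 7 without wild-type replicate 1 and 4 without knockout replicate 1. The same shares of all merged regions then were 35.1%, 18.9%, 6.08% and 11.5%.

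**Figure D3:**
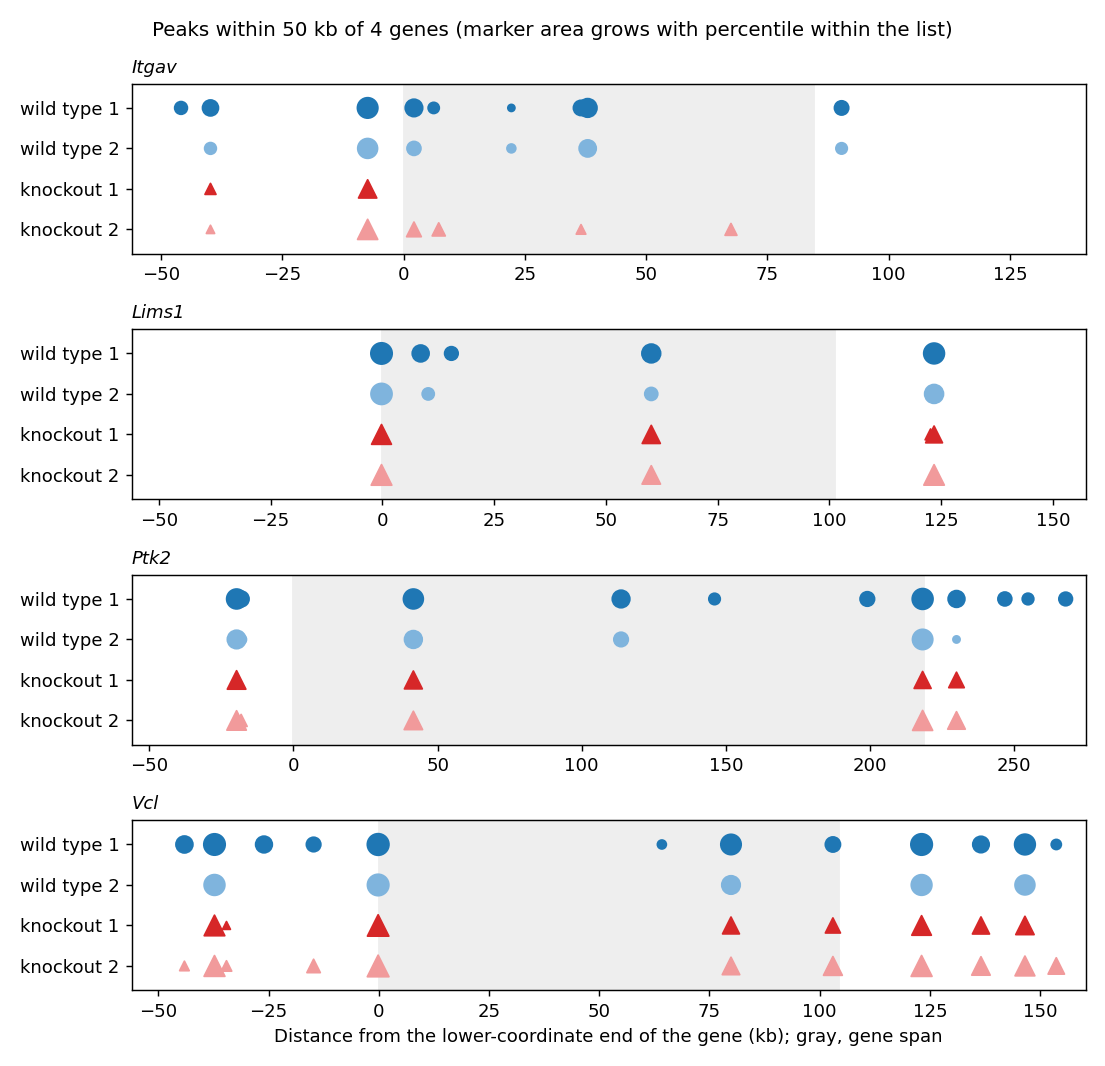
Peaks of each library (rows) within 50 kb of Itgav, Lims1, Ptk2 and Vcl, at the distance of the region's strongest summit from the lower-coordinate end of the gene (horizontal axis, kb); marker area grows with the percentile within that library's list. The wild-type-only sites of Itgav appear at 22.2, 38.0 and 90.3 kb, with no knockout marker at those distances.

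Among the 34 shared regions, more ranked lower than higher in the knockout, but not all of them belong to the members. Only 20 were left where the member had to contain the summit or be the nearest gene. Of the others, those at Taf10, Ap3m1, Adk, Ccdc107, Sirt4 (the farther of 2), Rplp0, Epha1 and Tas2r143 were lower. Those at Creb3 and Ago2 were higher. The shares below are thus shares of the windows and not of the members alone. Both knockout libraries stood below both wild-type libraries at 13 (38.2%) and above them at 6 (17.6%), against 25.0% and 22.7% of all shared regions, and the genotypes overlapped at 15. The median difference was -2.69 points, against -0.549 over all shared regions. For scale, the median gap between replicates over all shared regions was 7.25 points in wild type and 9.55 in knockout, and the median size of the genotype difference was 8.80. At gene ends, 3 of 8 were lower and 1 higher (26.9% and 15.3% of all shared gene-end regions), and the other 26 had 10 lower and 5 higher. Of those 26, 7 lay at an end of another gene (4 lower, 1 higher), and 19 lay away from all gene ends (6 lower and 4 higher, where 23.3% and 29.3% of all such shared regions were). The lower count became 21 of 41 without knockout replicate 1 and 20 of 34 without knockout replicate 2, where 37.1% and 41.8% of all shared regions were lower. The higher count became 11 of 39 without wild-type replicate 2 and 14 of 41 without knockout replicate 1, where 33.1% and 36.2% were higher.

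**Figure D4:**
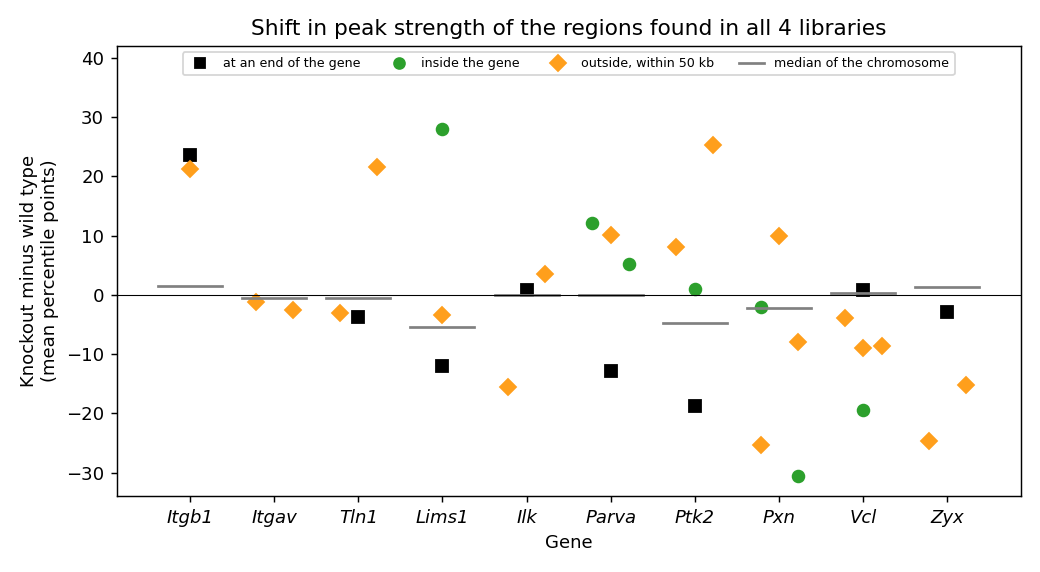
Difference in mean strength percentile by −log10 q, knockout minus wild type (vertical axis, points), of the 34 member regions found in all 4 libraries, by gene; squares are gene ends, circles are inside the gene, diamonds are outside it within 50 kb, and gray lines give the median of all shared regions of that chromosome. The differences run from -30.5 at a Pxn site to 27.9 at a Lims1 site.

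Ranked by −log10 q, distal sites inside the genes gave both the highest and the lowest differences. The lowest was a site inside Pxn, 17.1 kb from its higher-coordinate end (chr5:115538768-115538952), with folds of 14.6 and 12.6 in wild type and 6.04 and 9.02 in knockout and percentiles of 61.5 and 63.7 against 22.2 and 41.9. Its difference of -30.5 points became -15.8 without knockout replicate 1, and at a −log10 q of at least 10 it was not in all 4 lists. The highest was a site inside Lims1, 41.2 kb from its higher-coordinate end (chr10:58383428-58383631). Its folds were 12.1 and 7.63 in wild type and 8.69 and 9.45 in knockout, and its percentiles 24.8 and 11.7 against 57.8 and 34.6. It thus ranked higher in both knockout libraries, whereas the Lims1 gene end ranked lower, on a chromosome whose median was also lower. Ranked by fold, both sites kept their direction, but the highest difference was that of the Pxn region at Sirt4 and the lowest, -29.7, that of a site 7.5 kb outside the lower-coordinate end of Pxn.

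Several distal sites in the window of 1 gene shared a direction, and others did not. At Itgb1 a site 30.8 kb before the gene (chr8:128654559-128654994) was the stronger of its 2 shared regions, with folds between 12.8 and 14.6, and like the gene end it ranked higher in knockout, at 90.9 and 82.4 against 61.5 and 69.3. Its difference of 21.2 points became 12.6 without knockout replicate 1, and 14.4 with the chromosome median of each library subtracted. Another site 5.5 kb before Itgb1 had folds of 14.6, 10.0 and 10.4 in wild-type replicate 1 and both knockout libraries and no peak in wild-type replicate 2. At Zyx, sites 22.0 kb and 36.4 kb beyond the gene were lower in both knockout libraries (12.9 and 4.27 against 26.3 and 40.04 at the nearer site, and at the farther 41.6 and 44.6 against 61.4 and 55.3), while the Zyx gene end overlapped. Other genes have closer ends, Epha1 at 8.9 kb from the first site and Tas2r143 at 3.6 kb from the second. At a −log10 q of at least 10 the site at 22.0 kb was not in all 4 lists. At Ptk2 a weak site 11.2 kb beyond its higher-coordinate end was higher in knockout (35.1 and 23.5 against 8.01 and 0.19), opposite to the gene end. A site 1.8 kb beyond the higher-coordinate end of Tln1, inside Creb3, was also higher (30.5 and 49.4 against 13.1 and 23.7). Its difference of 21.6 points became 8.89 ranked by fold, and the genotypes overlapped at a −log10 q of at least 10.

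Vcl carried a strong upstream site. It lay 37.3 kb before the gene (chr14:20891929-20892287) with folds of 20.1, 16.9, 11.5 and 13.4 and percentiles of 88.6 and 83.4 in wild type and 85.2 and 78.8 in knockout, which overlap, although ranked by fold they did not, at 85.8 and 84.4 against 82.9 and 76.4. A site inside Vcl, 24.4 kb from its higher-coordinate end (chr14:21009058-21009354), was lower in both knockout libraries, at 46.3 and 23.0 against 58.3 and 49.8, a difference of -19.4 points that became -7.66 without knockout replicate 2. For Parva, all 4 shared regions were weak, and at the 3 distal ones, of which 2 lie inside the gene, 1 knockout library was higher and the genotypes overlapped. Itgav had a site 7.4 kb before its lower-coordinate end (chr2:83714774-83715018) that was open in all 4 libraries, with folds of 17.9, 16.1, 10.2 and 13.5 and percentiles of 60.8, 68.5, 59.0 and 65.2, again overlapping.

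Of 51 other adhesion genes, 14 (27.5%) had a gene-end peak in all 4 libraries, close to the 26.4% of all genes, and 24 (47.1%) had none. By role these were 1 of 11 integrins, 5 of 11 integrin activators and adaptors, 2 of 7 kinases, phosphatases and exchange factors, and 6 of 22 actin linkers. The strongest were Pip5k1c, a lipid kinase that serves talin, with a mean within-list percentile of 98.5, Rsu1, a partner of PINCH (95.9), Lpxn, a paxillin relative (95.1), Actn1, an actin crosslinker (90.5), and Crk, an adaptor (89.7). Gene ends open in wild type alone were those of Itga6, a laminin-binding integrin chain, Src, a tyrosine kinase, Lpp and Tes, which are LIM proteins, and 0 genes had the reverse. These 4 (7.84%, against 1.69% of all genes) were weak in wild-type replicate 2, at percentiles of 15.6, 0.39, 37.9 and 12.2, and with lists of equal length the count was 0.

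Of the 95 member regions, 2 overlapped the authors' deposited wild-type-enriched list, those of Lims1 and Ptk2 (0.493% of all merged regions did), and 0 overlapped the knockout-enriched list (0.491%). By gene, 2.38% of all genes had a wild-type-enriched region within 50 kb and 1.94% a knockout-enriched one. The members were named with these lists known, so their count is a description. Of the 51 other genes, 1 had a wild-type-enriched region, Pip5k1c, at an end of Hmg20b 30.6 kb away. Knockout-enriched regions lay near 4, the actin crosslinker Actn4 with 2, Crk, the adaptor Git2, and inside Kank1, which caps adhesions. Those of Crk and Git2 lay 25.1 and 8.2 kb away, nearest to ends of Myo1c and Tchp. One of Actn4 lay 7.8 kb outside it, nearest to an end of Eif3k, with peaks in wild-type replicate 1 and knockout replicate 2 alone. The site inside Actn4, 8.3 kb from its end, had percentiles of 18.3 and 19.5 in wild type and 60.2 and 48.2 in knockout, and that of Kank1 had peaks in the knockout libraries only, at folds of 5.73 and 6.62.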

How the data were processed

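ATAC-seq peak lists of 4 libraries were analysed, 2 per genotype. The submitters' processing notes name mm10 as the build and, without roles, the tools MACS2, Bowtie2, cutadapt, DiffBind 2.2.12, DESeq2 and deepTools. Peak names in the deposited lists show that each library was called separately, and the deposited score follows −log10 q. The deposited fold is a ratio of summit to local background, and the deposited −log10 p and −log10 q were made by the same caller. Library names carry the numbers 1 and 3 for wild type and 2 and 3 for knockout. The authors also deposited lists of 190 wild-type-enriched and 189 knockout-enriched regions, as positions alone, with cutoffs not given in the sources used here.

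From these, peaks overlapping by at least 1 bp were merged with Python 3.11.15, pandas 2.3.3 and numpy 2.4.6. A region belonged to a member when a summit (column 2 plus column 10) lay in the gene span or within 50 kb. Gene spans and promoter sequences were RefSeq's. Single regions were compared by two-sided exact permutation tests (scipy 1.17.1). The files used hold no read counts, so depth and counting error are unknown. Merging, presence classes and rank calls were tested on simulated data. The simulated lists lost no peak to list length or threshold, so they cannot show how such losses change the counts. All 10 members are named. Of 51 other adhesion genes, those with a gene-end peak in 1 genotype only, those near a deposited differential region, and the 5 strongest are named. Members and lists were chosen with earlier results of these data known. Alternatives were list length, a −log10 q of at least 10, windows, merging, ranking by fold or −log10 p, subtracting chromosome medians, and leaving out each library.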

Additional observations from a re-analysis of the deposited data

How the results depend on the processing

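All counts rest on 4 lists of unequal length with unknown depth. Member regions in all 4 libraries numbered 34, and 21 with a window of 10 kb or 20 where the member had to contain the summit or be the nearest gene. Wild-type-only regions numbered 5, and 2 with −log10 q of at least 10 (6.8% of all merged regions left). Knockout-only regions numbered 2, 4 with equal list lengths (5.23% of all merged regions left, from 0.953%), 0 with −log10 q of at least 10 (0.608%) and 1 within 10 kb. Equal list lengths and the stricter q also left fewer member regions to count. Leaving out 1 library gave 5 to 34 wild-type-only and 2 to 7 knockout-only regions. For the 51 other adhesion genes, wild-type-only gene ends numbered 4 (1.69% of all genes). There were 0 with equal list lengths (1.36%) and 1 with −log10 q of at least 10 (1.84%). With 1 library left out they ran from 4 to 9, where 1.82% to 7.75% of all genes had this pattern. Knockout-only gene ends numbered 0 (0.0503% of all genes), 1 with a gene-end distance of 3 kb (0.0822%), and 0 to 1 with 1 library left out (0.0640% to 0.749%). The 8 member genes with a gene-end peak in all 4 libraries became 6 to 9 under the alternatives, and remained 8 when listed starts were added, a check chosen after seeing the data. Shared regions lower in knockout numbered 13, and 15 to 21 with 1 library left out, where 36.7% to 41.8% of all shared regions were lower. Higher ones numbered 6, and 7 to 14 with 1 library left out, where 33.1% to 36.9% were higher. The cause of these moves was not tested, beyond the smaller number of libraries or peaks that each setting keeps. Ranked by fold, the Lims1 gene end reversed to 4.22 points. Of the 34 shared member regions, 12 were then lower and 8 higher, beside 22.0% and 21.8% of all shared regions.

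With the replicate numbers as a replicate block, 16 shared regions were lower and 8 higher in knockout in both same-numbered pairs, as were 32.5% and 29.0% of all shared regions. The labels do not pair the libraries, and the replicate differences of the genotypes had r = 0.029 over 10977 regions, which are not independent.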

Other observations

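The windows of the members also hold gene ends of their neighbours, and some were strong. The region at an end of Rplp0, a ribosomal protein gene 3.4 kb beyond Pxn (chr5:115559255-115559541), had folds of 23.4 and 21.7 in wild type and 12.6 and 16.6 in knockout, and strength percentiles of 90.8 and 91.9 against 83.2 and 83.5. That of Ccdc107, 38.5 kb from Tln1, had percentiles of 96.2 and 97.1 against 92.7 and 94.5, a difference of -3.08 points that became -1.59 without knockout replicate 1 and -4.87 ranked by fold. Lower in both knockout libraries were also the ends of Ap3m1, an adaptor subunit of vesicle coats 18.8 kb beyond Vcl (90.7 and 81.2 against 73.4 and 80.5), where the genotypes overlapped when ranked by fold, and of Taf10, a subunit of TFIID 1.5 kb beyond Ilk (63.8 and 75.4 against 52.7 and 55.3). The Ap3m1 difference of -8.95 points became -4.22 without wild-type replicate 1 and -3.91 without knockout replicate 1, and that of Taf10, -15.6, became -9.25 without wild-type replicate 2. The region at an end of Ago2, the microRNA effector 19.7 kb from Ptk2, ranked higher in both knockout libraries, at 61.9 and 51.2 against 47.0 and 50.1, where the median of chromosome 15 was lower. Its difference of 8.04 points became 2.93 without knockout replicate 1, 13.2 without knockout replicate 2, 13.5 ranked by fold and 14.9 with chromosome medians subtracted. Ranked by −log10 q, each of these single regions has an exact permutation p of 0.33, the smallest that 2 libraries against 2 can give.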
